A study of Mus musculus with 45 samples.

Results

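Of the 184964 open chromatin regions (OCRs) counted by ATACseq across the depletion time courses, 1214 kept their accessibility for the first hours after SOX2 depletion and stood at 50% of it or less a day later. These late-lost OCRs were chosen on values of the same table, as CPM (the fragment count scaled to a common total per library, mitochondrial peaks left out) averaged over replicates. An OCR was taken when its level in untreated (NT) SOX2-FKBP cells was at least 4 CPM, when at least 0.8 of that level was left at 2 h and at most 0.5 at 24 h, and when OCT4-FKBP cells kept at least 0.6 of their NT level at 2 h. The first threshold kept 66828 OCRs (36.1% of all), the second 52182, the third 1491 and the last 1214, which is 0.656% of all OCRs and 1.82% of those with at least 4 CPM. For comparison, 5751 early-lost OCRs had the same NT minimum and at most 0.5 of the NT level at both 2 h and 24 h.

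SOX2 and OCT4 are transcription factors that bind DNA together in pluripotent cells, can engage DNA in nucleosomes and keep enhancers open, and NANOG is a homeodomain factor of the same network. Pluripotency also rests on factors such as ESRRB and the KLF family, and on the LIF, Wnt and Nodal signals that act through STAT, TCF/LEF and SMAD proteins. In ATACseq the Tn5 transposase cuts DNA that is not wrapped in nucleosomes, so the fragments over an OCR measure how accessible it is.

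The cells were mouse embryonic stem cells (mESC) whose endogenous SOX2 (SOX2-FKBP, labelled E14, with IB10 cells named in the methods), OCT4 (OCT4-FKBP, line V6.5) or NANOG (NANOG-FKBP, line E14) carries an FKBP tag, so that dTAG-13 sends the fusion protein to the proteasome. All cells, NT included, carried the tag of their line and grew without serum in LIF with a MEK and a GSK3 inhibitor. Treated cells received 500 nM dTAG-13 for 0.5, 1, 2, 6 or 24 h (SOX2-FKBP) or 2, 6 or 24 h (the other lines), and NT cells received DMSO. There were 2 libraries per condition, and 3 for each treated time of NANOG-FKBP. The labels do not say whether replicates were separate cultures, so p-values measure the spread between these libraries, which may be technical. OCT4-FKBP differs from the other lines in its parental cells, so that the line and the depleted protein cannot be told apart, and ATACseq holds no check of the degraded protein itself. The methods mention an additional SOX2-FKBP clone without saying which libraries came from it.

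Library totals lay between 5664738 and 10887645 counts in SOX2-FKBP, 6378962 and 17575631 in OCT4-FKBP and 1817191 and 12437876 in NANOG-FKBP, and 1.42% to 17.6% of counts fell on the mitochondrial genome. A late-lost OCR had a median of 62 counts per library in NT SOX2-FKBP cells, 29 at 24 h, and 17 at 24 h of OCT4 depletion, the lowest of all conditions. Promoter peaks were present for 5 of 6 stem cell genes (Sox2, Nanog, Zfp42, Esrrb and Tfcp2l1, at 17.6 to 60.2 CPM in NT libraries). Promoters of other lineages were also open (4.82 to 44.3 CPM), so that promoter peaks are a weak check of the cell type.

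The sequences below show the kinds of DNA found under late-lost summits. Each is the 200 bases centered on the summit, from the plus strand of RefSeq's GRCm38.p6 (mm10), with capitals on every match to a short consensus searched on both strands. The consensus letters were ACAAAG or ACAATG for SOX, ATGCAAA for POU (the OCT4 family), CAGCAGG for ZIC, GGGCGTG or GGGTGTG for KLF, AAGGTCA for ESRRB/NR5A2 and ATCAAAG for TCF/LEF. The SOX-POU composite is TTGT, any base, then ATGCA, and can overlap a POU match. Lefty2 is shown for the highest NT level of all late-lost OCRs and for its composite, which overlaps its POU match. Socs3 and Esrrb, near a LIF feedback gene and a naive pluripotency gene, are shown for their SOX matches, and the one in Esrrb stands beside an ESRRB/NR5A2 match. Crtc1 holds a KLF match, and Ngfr holds 2 of them with SOX, ZIC and ESRRB/NR5A2 matches. Cntn3, with the lowest share left at 24 h among OCRs of at least 8 CPM, holds 4 ZIC matches in a window that is 77.0% repeat, and Tmem132b and Sox13 hold TCF/LEF matches. Klf5 is shown for its fall after NANOG depletion.
Lefty2 (chr1:180888736-180888935): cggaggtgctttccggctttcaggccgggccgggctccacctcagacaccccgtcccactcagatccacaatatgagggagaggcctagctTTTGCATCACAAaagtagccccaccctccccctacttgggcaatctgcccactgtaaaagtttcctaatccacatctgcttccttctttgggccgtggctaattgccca
Socs3 (chr11:117941908-117942107): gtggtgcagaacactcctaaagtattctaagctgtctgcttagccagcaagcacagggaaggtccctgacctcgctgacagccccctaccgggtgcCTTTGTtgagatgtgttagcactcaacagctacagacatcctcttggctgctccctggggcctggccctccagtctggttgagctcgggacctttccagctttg
Esrrb (chr12:86386019-86386218): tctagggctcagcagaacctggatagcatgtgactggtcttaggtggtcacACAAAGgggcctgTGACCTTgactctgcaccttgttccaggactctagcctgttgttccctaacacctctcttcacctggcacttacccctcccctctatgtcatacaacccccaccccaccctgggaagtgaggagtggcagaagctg
Crtc1 (chr8:70428589-70428788): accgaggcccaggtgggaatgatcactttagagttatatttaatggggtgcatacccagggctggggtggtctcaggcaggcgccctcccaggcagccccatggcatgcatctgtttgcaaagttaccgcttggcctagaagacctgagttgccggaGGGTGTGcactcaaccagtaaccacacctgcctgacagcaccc
Ngfr (chr11:95583460-95583659): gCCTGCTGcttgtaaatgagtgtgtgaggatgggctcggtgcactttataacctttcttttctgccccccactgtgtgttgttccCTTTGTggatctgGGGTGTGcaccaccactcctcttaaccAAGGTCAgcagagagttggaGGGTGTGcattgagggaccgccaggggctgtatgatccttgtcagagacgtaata
Cntn3 (chr6:102746585-102746784): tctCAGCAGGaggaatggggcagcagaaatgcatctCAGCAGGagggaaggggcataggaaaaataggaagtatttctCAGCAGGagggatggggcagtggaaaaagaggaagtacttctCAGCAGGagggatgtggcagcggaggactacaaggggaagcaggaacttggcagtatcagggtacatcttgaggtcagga
Tmem132b (chr5:125998812-125999011): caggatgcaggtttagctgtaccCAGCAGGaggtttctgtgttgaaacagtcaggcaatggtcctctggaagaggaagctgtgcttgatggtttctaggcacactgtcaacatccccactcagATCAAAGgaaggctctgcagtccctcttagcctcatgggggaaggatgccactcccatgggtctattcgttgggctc
Sox13 (chr1:133434689-133434888): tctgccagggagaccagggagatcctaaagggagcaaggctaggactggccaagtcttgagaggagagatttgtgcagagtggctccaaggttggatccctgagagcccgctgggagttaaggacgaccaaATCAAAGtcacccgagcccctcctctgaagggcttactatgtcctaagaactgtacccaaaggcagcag
Klf5 (chr14:99275858-99276057): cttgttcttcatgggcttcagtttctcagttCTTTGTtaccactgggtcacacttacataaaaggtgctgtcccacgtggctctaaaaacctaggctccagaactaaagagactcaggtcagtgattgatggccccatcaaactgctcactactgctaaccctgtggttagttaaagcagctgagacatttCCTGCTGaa

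In SOX2-FKBP cells the late-lost OCRs stood close to their NT level for 2 h, lower at 6 h and under 50% of it at 24 h, a course fixed at 2 h and 24 h by the rule and therefore given without a test. As a percent of NT their median level was 100, 99.8, 94.3, 72.1 and 42.8 at 0.5, 1, 2, 6 and 24 h. In CPM the median over OCRs was 7.59 and 7.62 in the NT libraries, 5.53 and 5.62 at 6 h, and 3.15 and 3.09 at 24 h. The replicates of these 3 conditions thus differed far less from each other than the conditions did. This does not hold for the early times, as 0.5 h gave 7.45 and 8.22 CPM and 2 h gave 7.11 and 7.7, on either side of NT. The early-lost OCRs had a median of 51.5% left at 0.5 h already, 33.7% at 2 h, 27.2% at 6 h and 19.5% at 24 h, while all OCRs with at least 4 CPM stayed between 98.9% and 103%. At 6 h a median of 47.7% of the later fall from NT to 24 h was present (interquartile range 29.5% to 61.4%), and 66 of the 1214 OCRs were not below NT. In bulk ATACseq, fewer cells with an open site and less opening per cell cannot be told apart.

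**Figure D1:**
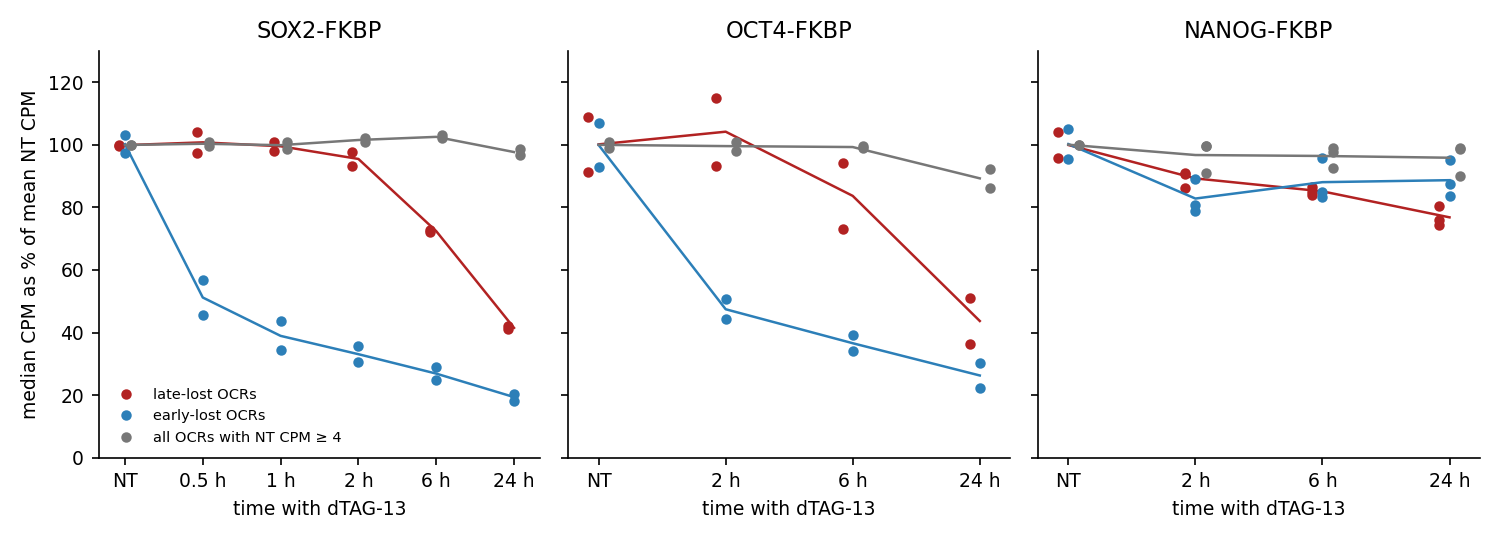
Median level of late-lost OCRs (red), early-lost OCRs (blue) and all OCRs with at least 4 CPM in NT cells of the line shown (grey). Levels are a percent of the mean NT level of each OCR, by time of dTAG-13 treatment in the 3 lines. Points are libraries and lines join the means of a time. Late-lost OCRs were at 72.1% of NT at 6 h and 42.8% at 24 h of SOX2 depletion, 45% at 24 h of OCT4 depletion and 78.2% at 24 h of NANOG depletion, where the grey medians were 103%, 98.9%, 90.5% and 97.7%.

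The thresholds cut through a continuous range. An intronic OCR of Crtc1 (a coactivator of CREB) was just inside, its 24 h level being 0.49996 of NT, and one near Wdr7 was just outside with 0.50007. At 2 h an OCR near Cacna1a was inside with 0.80001 left and one near Sparc outside with 0.79992. An OCR near Amy2a5 was inside with an NT level of 4.002 CPM, whereas one near Kirrel3 had 3.996 CPM. At 2 h of OCT4 depletion an OCR near Tmem163 was inside with 0.6004 left and one near Aym1 outside with 0.5995. Choosing OCRs on replicate 1 alone gave 1202, whose median at 24 h was 42.5% of NT in replicate 1 and 47.6% in replicate 2. In replicate 2, 55.7% of them had 50% of NT or less left, against 17.3% of all OCRs with at least 4 CPM. Choosing on replicate 2 alone gave 1638, with 42.0% left in replicate 2 and 50.5% in replicate 1, where 48.9% had 50% or less against 16.7% of all. These values use the libraries of the rule and are given as a description.

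The libraries of 0.5, 1 and 6 h in SOX2-FKBP were not used by the rule, and show whether the loss was under way at 6 h. Against the mean of 0.5 and 1 h, 299 of 1214 late-lost OCRs (24.6%) were lower at 6 h and 0 were higher by edgeR's quasi-likelihood test with Benjamini-Hochberg adjustment over 160432 OCRs. Of all OCRs tested, 2.24% were lower and 0.541% higher, and of those with at least 4 CPM in NT cells 4.79% were lower. Late-lost OCRs had a median log2 fold change of -0.45 and all OCRs tested one of 0.03, and 93.5% of them had a negative value. At an unadjusted p under 0.05, 698 were lower and 1 was higher. DESeq2 called 155 lower (12.8%, against 1.06% of all OCRs tested) and 0 higher. Both 6 h libraries lay below all 4 libraries of 0.5 and 1 h at 742 late-lost OCRs (61.1%), against 11.3% of all OCRs tested. The early-lost OCRs, which were still losing accessibility, were called lower at 28.1%.

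The count of 299 moved with the libraries and the fit. With the replicate number as a block, which the pairing of libraries in this line allows, 493 late-lost OCRs (40.6%) and 4.43% of all OCRs tested were lower. The share of lower among all calls was then 69.2% in place of 80.5%. It was 93.7% with DESeq2. Leaving out 6 h replicate 1, 6 h replicate 2 or 0.5 h replicate 2 left 124 (10.2%), 54 (4.45%) and 181 (14.9%) lower calls. The shares of all OCRs tested were then 0.745%, 0.541% and 1.33%, so that they dropped as well. The median log2 fold change stayed between -0.42 and -0.50 in these and all other fits of this comparison.

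None of the 8 steepest falls at 6 h among late-lost OCRs that passed, had at least 8 CPM in NT cells and had both 6 h libraries below all 4 of 0.5 and 1 h was near a gene of the naive pluripotency list used below. Only 2 of the 299 late-lost OCRs called lower at 6 h were near such a gene, so that their absence among 8 says little. An intronic OCR of Xkr4 (a gene of the XK-related membrane protein family; chr1:3445555-3446420) had 11.5 and 8.09 CPM in NT libraries, 9.69 and 10.8 at 0.5 h, 12.3 and 9.46 at 1 h, 7.77 and 9.2 at 2 h, 2.71 and 2.9 at 6 h, and 2.39 and 2.56 at 24 h. Its 6 h libraries were already near the 24 h level. The log2 fold change at 6 h was -1.91 ± 0.22 (SE, n = 2 against 4; adjusted p = 1.71e-06, edgeR's quasi-likelihood test). The same OCR had 5.11 and 12.4 CPM in NT NANOG-FKBP cells and 0.871 to 1.49 at 24 h of NANOG depletion (log2 fold change -2.78 ± 0.48, adjusted p = 0.000255, edgeR), and in OCT4-FKBP its replicates spread widely (1.59 and 3.54 CPM at 6 h, 0.407 and 2.96 at 24 h) and the change from 6 to 24 h did not pass (-0.63 ± 0.56, adjusted p = 0.564, edgeR).

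The Socs3 OCR, 27.2 kb downstream of the start of this feedback inhibitor of LIF and JAK-STAT signaling (chr11:117941535-117942311), had 9.93 and 11.7 CPM in NT libraries, 9.59 and 11.5 at 0.5 h, 9.23 and 8.74 at 1 h, 7.66 and 10.1 at 2 h, 3.55 and 4.31 at 6 h and 3.48 and 2.88 at 24 h. It fell at 6 h by 1.29 ± 0.20 on the log2 scale (adjusted p = 0.00011, edgeR), and its 6 h libraries were close to those of 24 h. The Ngfr OCR lies in an intron of the neurotrophin receptor gene (chr11:95583387-95583698) and fell by 1.24 ± 0.21 (adjusted p = 0.000331, edgeR), from 10.0 to 11.9 CPM at 0.5 and 1 h to 5.01 and 4.31 at 6 h. The Crtc1 OCR (chr8:70428063-70429858) fell by 1.36 ± 0.19 (adjusted p = 1.82e-05, edgeR) from a level that was itself above NT, with 17 to 25.6 CPM at 0.5 and 1 h, 14.2 and 15.7 in NT cells and 9.8 and 6.37 at 6 h. Measured against NT it had 54.0% left at 6 h, so that its contrast was larger than its fall from NT.

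The other 4 of the 8 steepest were near Cntn3 (a neural cell adhesion gene; -1.39 ± 0.24, adjusted p = 0.000422), Tmem132b (-1.39 ± 0.24, 0.000421), Eno1 (a glycolytic enolase; -1.33 ± 0.20, 6.37e-05) and Olfr52 (an olfactory receptor gene; -1.30 ± 0.22, 0.000319), all by edgeR's quasi-likelihood test. Without 6 h replicate 1 the Cntn3 call was lost (-1.10, adjusted p = 0.0596, edgeR), and without 6 h replicate 2 that of Ngfr (-1.10, adjusted p = 0.0557, edgeR). The Eno1 OCR overlaps a coding exon and the Olfr52 summit an untranslated exon. All 4 were also below their NT mean at 24 h of OCT4 and of NANOG depletion, with 6.97% to 37.9% and 20.3% to 52.1% left.

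**Figure D2:**
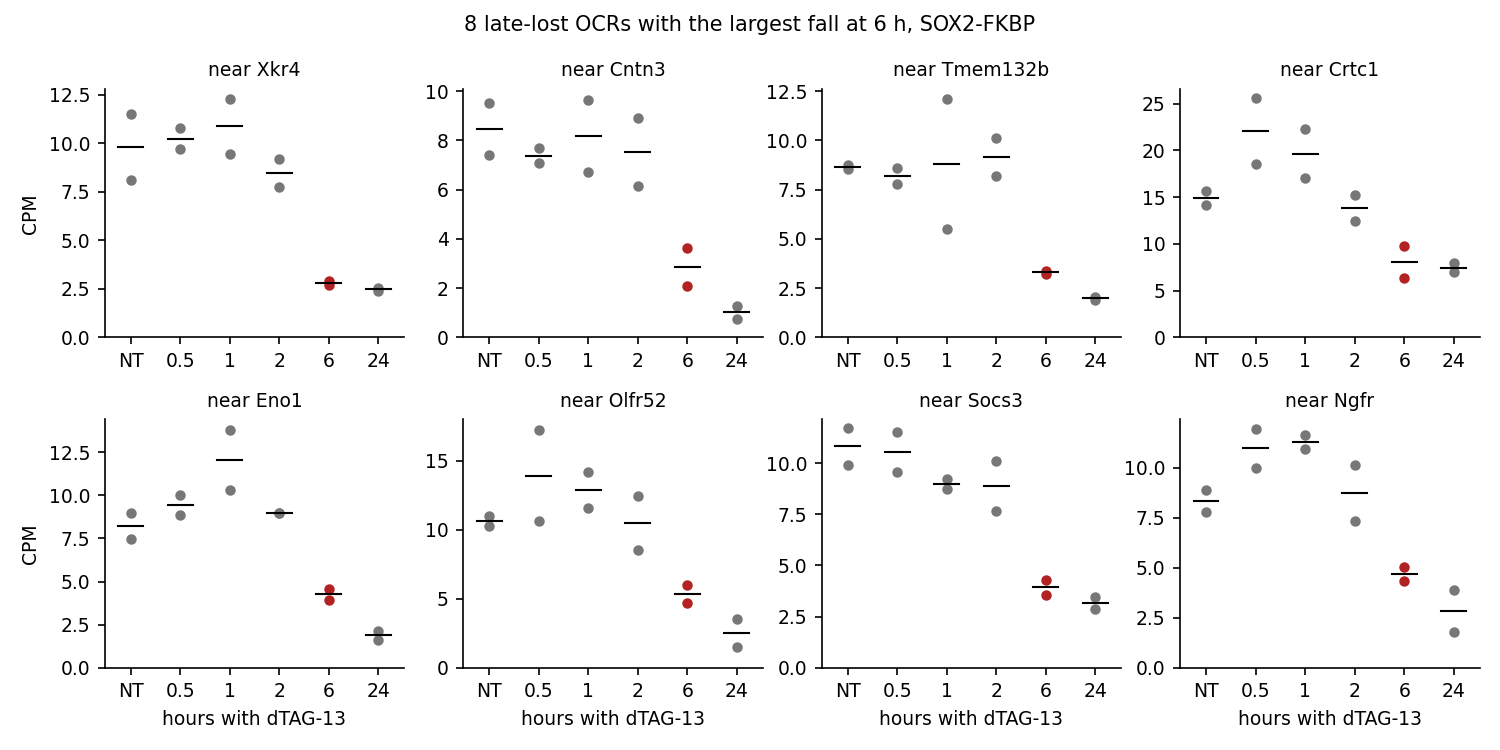
CPM in every SOX2-FKBP library of the 8 late-lost OCRs with the steepest fall at 6 h, by time of dTAG-13 treatment. Points are libraries, bars are means (n = 2) and the 6 h libraries, which the rule did not use, are red. At Xkr4 the 6 h libraries had 2.71 and 2.9 CPM, and all 4 libraries of 0.5 and 1 h had 9.46 or more.

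The lowest shares left at 24 h, given as a description, were at Cntn3 (12.1% of NT), Dynlt1b (a dynein light chain gene; 15.0%), Gm12728 (16.0%), Rab6b (a small GTPase; 17.6%), Oas1g (an interferon-induced synthetase; 18%), Snd1 (18.2%), Tnfrsf21 (a death-domain receptor; 18.7%) and Il21r (a cytokine receptor; 20.3%). The Tnfrsf21 OCR was the brightest of these, with 47.2 and 43.2 CPM in NT libraries, 26.4 and 23.2 at 6 h and 7.71 and 9.18 at 24 h. At 6 h they had between 33.9% (Cntn3) and 92.9% (Dynlt1b) left, so that a near-complete loss at 24 h followed quite different levels at 6 h. The Dynlt1b OCR was even above NT at 2 h, with 16.0 and 14.8 CPM against 11.8 and 8.41.

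OCT4 depletion gave a comparison in libraries of 6 and 24 h that the rule did not use. Late-lost OCRs had a median of 105% of the NT level at 2 h, where the rule set a minimum, 84.5% at 6 h and 45% at 24 h. In CPM the median was 5.22 and 6.72 in NT libraries, 4.49 and 5.69 at 6 h and 2.03 and 2.96 at 24 h, so that the 24 h libraries were below every other one but differed from each other. Between 6 and 24 h, 471 late-lost OCRs (38.8%) fell and 1 rose by edgeR's quasi-likelihood test, where 4.49% of all 166430 OCRs tested fell and 2.92% rose. The median log2 fold change was -0.88, with -1.2 in 24 h replicate 1 and -0.73 in replicate 2 when each was set against the mean of 6 h, and 546 OCRs had -1 or less. Of OCRs with at least 4 CPM in NT SOX2-FKBP cells 8.89% fell, and of early-lost OCRs 16.4%. Both 24 h libraries were below both 6 h libraries at 848 late-lost OCRs (69.9%), against 26.0% of all OCRs tested.

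Without 24 h replicate 1 the count was 173 (14.3%, against 0.978% of all OCRs tested), and without 6 h replicate 2 it was 294 (24.2% against 2.48%). Of all calls in this comparison 60.6% were lower, and this share was 49.6% with DESeq2's size factors, 51.7% with DESeq2's own test, 52.6% with the replicate block and 68.9% with library totals, while the median over late-lost OCRs stayed between -0.82 and -0.94 under these. The promoter peaks of Esrrb (51.9 CPM in NT cells and 13.2 at 24 h) and Nanog (36.5 and 14.6) were also lower at 24 h in this line, whereas Sox2 had 36.7 and 38.3 CPM, Zfp42 33.6 and 31.8, and Tfcp2l1 20.6 and 34.8. Promoters of genes of several other lineages were higher at 24 h, namely Pax6 (22.3 and 35.4), Sox1 (42.8 and 49.6), Gata4 (17.1 and 25.2), Gata6 (25 and 36.9), Sox17 (39.0 and 47.2), Col1a1 (11.8 and 14.9) and Eomes (35.7 and 37.3), and those of Cdx2 (23.4 and 23.1), T (15.3 and 14.7) and Elf5 (5.63 and 5.4) were not. The part of these changes in the result was not tested.

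The steepest fall was at an intronic OCR of Celf4, a neuronal RNA-binding protein gene. It had 15.3 and 21.2 CPM in NT OCT4-FKBP cells, 16.2 and 25.1 at 2 h, 9.22 and 19.8 at 6 h and 1.49 and 0.657 at 24 h. The log2 fold change from 6 to 24 h was -3.61 ± 0.41 (n = 2 and 2; adjusted p = 7.35e-07, edgeR's quasi-likelihood test), although the 6 h libraries differed by more than 2-fold. The Dynlt1b OCR fell by 2.92 ± 0.41 (adjusted p = 1.38e-05, edgeR), from 9.16 and 13.5 CPM to 1.36 and 1.48. Falls of similar size were at Eno1 (-2.78 ± 0.39, adjusted p = 1.34e-05) and Enc1, an actin-binding kelch protein gene (-2.77 ± 0.46, adjusted p = 0.000153; both edgeR). Eno1 was thus among the 8 steepest in SOX2-FKBP and the 4 steepest in OCT4-FKBP, whereas the Enc1 OCR gave -0.05 ± 0.19 at 6 h of SOX2 depletion. The only late-lost OCR that rose, 227 kb from the start of Dnajb9 (an endoplasmic reticulum chaperone gene), is made up of repeats and was weak, with 0.733 and 0.569 CPM at 6 h and 1.36 and 2.46 at 24 h (1.55 ± 0.46, adjusted p = 0.0289, edgeR).

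The late-lost OCRs were not uniform under OCT4 depletion. At 24 h, 710 (58.5%) had 50% of the NT level or less, 398 had 50% to 100% of it, and 106 (8.73%) more than NT. Of all OCRs with at least 4 CPM in NT OCT4-FKBP cells, 21.8% had 50% or less and 43.0% more than NT. Of early-lost OCRs, 76.7% had 50% or less and 6.59% more than NT. The rule set no minimum level in OCT4-FKBP, where the 10th percentile of the late-lost NT level was 1.7 CPM. Some of the late-lost OCRs were thus placed in these classes on few counts. Late-lost OCRs with a higher NT level, and so more counts, passed the test more often. In SOX2-FKBP NT cells 438 late-lost OCRs had 4 to 6 CPM, 474 had 6 to 12 CPM and 302 had 12 CPM or more. Lower at 24 h of OCT4 depletion were 20.8%, 38.2% and 65.9% of them, with medians of -0.75, -0.89 and -1.15. At 6 h of SOX2 depletion 13.7%, 26.8% and 37.1% were lower, with medians of -0.43, -0.47 and -0.47.

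NANOG depletion touched fewer late-lost OCRs. Their median stood at 91.2%, 87.7% and 78.2% of NT after 2, 6 and 24 h. The 61649 OCRs with at least 4 CPM in NT NANOG-FKBP cells, chosen on the same NT libraries, had medians of 98.0%, 98.1% and 97.7%. The medians of the 3 libraries of 24 h were 80.3%, 75.9% and 74.2%, below both NT libraries (104% and 95.8%). The replicate 2 libraries of the treated times stood apart, with 1817191 to 3272168 counts, 13.2% to 17.6% of them mitochondrial. In these libraries all OCRs of at least 4 CPM also had low medians, of 91.0%, 92.4% and 89.9% in the order of the times, where the late-lost had 90.9%, 84.9% and 75.9%. At 2 h the late-lost OCRs were thus no lower than all OCRs in that library. By edgeR's quasi-likelihood test 74 (6.1%) fell and 1 rose at 2 h, with 0.938% and 0.0162% of all OCRs tested. At 6 h 104 (8.57%) fell and 0 rose, with 1.08% and 0.0367% of all. At 24 h 198 (16.3%) fell and 6 (0.494%) rose, with 2.25% and 0.288% of all. Of early-lost OCRs 8.02%, 8.69% and 14.3% fell at 2, 6 and 24 h, and their median was 84.8%, 90.4% and 90.2% of NT, which is below that of the late-lost at 2 h and above it at 6 and 24 h. Median log2 fold changes of the late-lost were -0.14, -0.18 and -0.34. At 6 h 287 late-lost OCRs were lower and 36 higher at an unadjusted p under 0.05 by edgeR. DESeq2 called 96 lower (7.91%, against 0.842% of all OCRs tested) and 0 higher. All 3 libraries of 24 h were below both NT libraries at 475 late-lost OCRs (39.1%), against 13.6% of all tested.

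These counts also rested on single libraries, and the 3 times share the same 2 NT libraries. Without NT replicate 1 the counts of lower OCRs were 39 at 2 h (3.21%, against 0.326% of all OCRs tested), 53 at 6 h (4.37% against 0.413%) and 111 at 24 h (9.14% against 0.878%). Without NT replicate 2 there were 49 at 2 h (4.04% against 0.706%), and without 2 h replicate 1 there were 24 (1.98% against 0.256%). Without 6 h replicate 1 there were 44 at 6 h (3.62% against 0.425%). With a minimum of 10 counts in every library, which left 419 late-lost OCRs, 2 were lower at 2 h (0.477%, against 0.258% of all tested). At 6 h 17 were lower (4.06% against 0.537%) and at 24 h 59 (14.1% against 2%). The minimum also holds for the treated libraries, of which 2 h replicate 2 had 1817191 counts, and so removes OCRs that fell to few counts. The small count at 2 h therefore cannot show whether the difference there was weaker.

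The strongest falls from NT at 24 h of NANOG depletion were large, and the levels were already low at 2 h. An OCR 145 kb from the start of Abcc12, an ABC transporter gene, had 8.62 and 13.1 CPM in NT libraries, 2.67 to 5.13 at 2 h, 1.41 to 1.97 at 6 h and 0.435 to 0.925 at 24 h. Its log2 fold change at 24 h was -3.83 ± 0.46 (n = 3 against 2; adjusted p = 7.98e-07, edgeR's quasi-likelihood test). An intronic OCR of Naa35, a subunit of an N-terminal acetyltransferase, lies in a repeat and had 21.8 and 14.5 CPM in NT cells but 0.667 to 2.4 at 2 h and 1.59 to 2.18 at 24 h (-3.30 ± 0.39, adjusted p = 5.72e-07, edgeR). The OCR 22.7 kb upstream of Klf5, a KLF factor of naive pluripotency, had 18.3 and 15.5 CPM in NT cells, 2.0 to 3.82 at 2 h and 1.72 to 2.18 at 24 h (-3.19 ± 0.42, adjusted p = 3.36e-06, edgeR). The fourth, in an untranslated exon of the G protein regulator gene Rgs3, fell by 3.12 ± 0.42 (adjusted p = 4.88e-06, edgeR). These OCRs had 7.91% to 32.9% of NT left at 2 h of NANOG depletion. In SOX2-FKBP the same 4 had 85.3% to 97.2% left at 2 h, which the rule required to be at least 80%. They were picked at 24 h against the same 2 NT libraries, so an early loss cannot be told apart from a difference between NT and treated libraries. The OCR that rose at 2 h lies 4.5 kb upstream of Slc52a3, and was named after its values were seen (8.33 and 5.34 CPM in NT libraries, 11.5 to 16.6 at 2 h; 1.03 ± 0.27, adjusted p = 0.0449, edgeR).

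**Figure D3:**
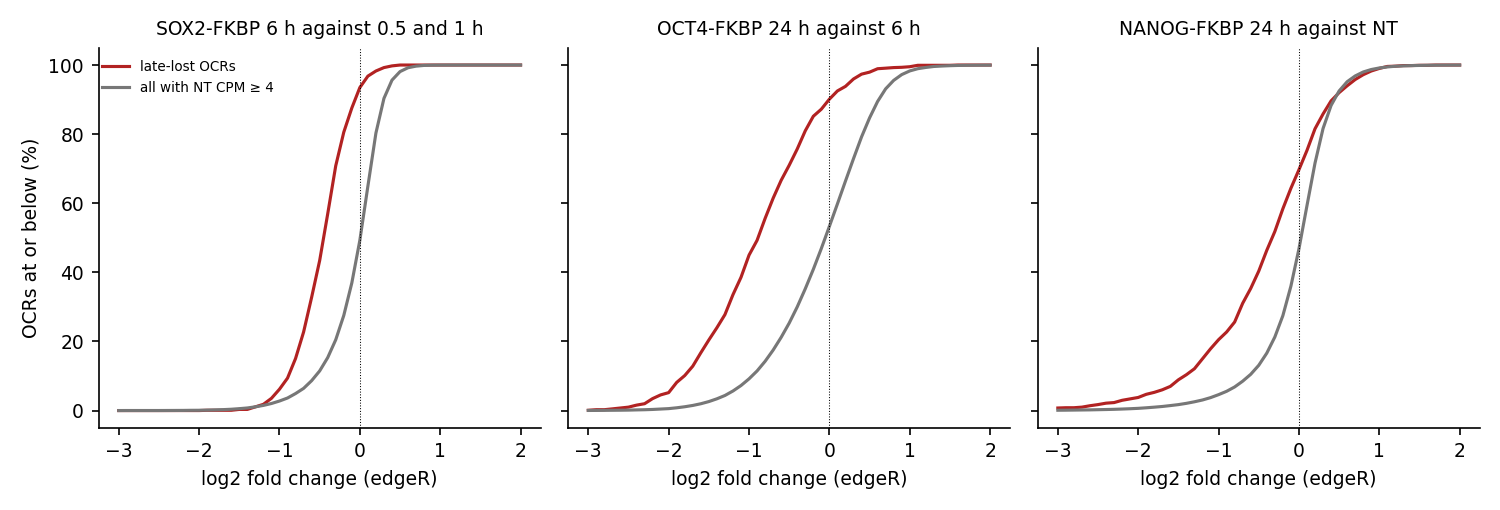
Cumulative percent of OCRs at or below a log2 fold change, for late-lost OCRs and all OCRs with at least 4 CPM in NT SOX2-FKBP cells, in the comparisons that did not enter the rule (SOX2-FKBP 6 h against 0.5 and 1 h, OCT4-FKBP 24 h against 6 h, NANOG-FKBP 24 h against NT). The late-lost curve lies to the left in each panel, with medians of -0.45, -0.88 and -0.34.

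Of the 1214 late-lost OCRs, 658 (54.2%) were lower in at least one of the 3 comparisons that close at 6 h of SOX2, 24 h of OCT4 and 24 h of NANOG depletion, and 48 (3.95%) were lower in all 3. Of all 155681 OCRs tested in the 3 comparisons these shares were 7.71% and 0.163%, and of those with at least 4 CPM 14.2% and 0.368%. The SOX2 and OCT4 calls shared 172 OCRs, which is 57.5% of the 299 and 36.5% of the 471, where 38.8% and 24.6% of all late-lost OCRs were called. The OCT4 and NANOG calls shared 113 (24.0% of the 471 and 57.1% of the 198), and the SOX2 and NANOG calls 73 (24.4% and 36.9%), where 16.3% of all late-lost OCRs were called after NANOG depletion. The OCRs called at 6 h of SOX2 depletion had a median NT level of 10.1 CPM and the others 6.91. Among the 248 OCRs with 50% of NT or less left at 24 h of NANOG depletion, 48.4% were lower after OCT4 depletion, against 36.3% of the other 966.

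Since OCT4 and NANOG depletion shared the times of 6 and 24 h, the change between these times was compared directly. It was more negative in OCT4-FKBP at 120 late-lost OCRs (9.88%) and more positive at 0 by the interaction term of edgeR's quasi-likelihood test, a contrast chosen after seeing the data. Of all OCRs tested 0.624% and 0.0817% passed in these directions, and the median difference over the late-lost OCRs was -0.77 on the log2 scale. At an unadjusted p under 0.05 there were 489 and 9, DESeq2 called 133 and 0, and with the replicate number as a block 337 were more negative. The Tnfrsf21 OCR showed it clearly, with 38.8 and 43.1 CPM at 6 h and 6.23 and 10.5 at 24 h of OCT4 depletion, and 36.5 to 64.4 and 33.9 to 54.9 in NANOG-FKBP (difference -2.17 ± 0.35, adjusted p = 0.0016, edgeR). At the Fgf4 OCR the difference was -1.87 ± 0.34 (adjusted p = 0.00402, edgeR), and at Klf5, where NANOG-FKBP had little left by 6 h, it was -0.48 ± 0.65. The rule left out OCRs with less than 0.6 of NT at 2 h of OCT4 depletion but set no such limit in NANOG-FKBP. At 6 h, 155 late-lost OCRs had 50% of NT or less in NANOG-FKBP and 96 in OCT4-FKBP. The part of this choice in the difference between the lines was not tested.

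Genes of known roles in the early embryo were looked up as the nearest protein-coding gene within 100 kb, in lists chosen with earlier results of these data known. Late-lost OCRs were 1.82% of all OCRs with at least 4 CPM, and 24.6%, 38.8% and 16.3% of them were lower at 6 h of SOX2, 24 h of OCT4 and 24 h of NANOG depletion, and the counts per list, which are small, stand against these shares. Of 32 naive pluripotency genes 8 had 10 late-lost OCRs, 2.86% of their 350 OCRs with at least 4 CPM (Esrrb, Fgf4, Klf4, Klf5, Pecam1, Tbx3, Tdrd12 and Zfp42), of which 2 fell at 6 h of SOX2 depletion, 4 at 24 h of OCT4 depletion and 1 at 24 h of NANOG depletion. Fgf4 encodes the growth factor that drives ERK signaling in mESC, and its intronic OCR (chr7:144851007-144852013) had 20.4 and 23.8 CPM in NT libraries, 18.7 to 26.4 at 0.5 and 1 h, 16.1 and 14.4 at 6 h and 9.67 and 7.79 at 24 h. It fell at 6 h by 0.57 ± 0.16 (adjusted p = 0.043) and between 6 and 24 h of OCT4 depletion by 1.22 ± 0.25 (adjusted p = 0.00196, both edgeR). After NANOG depletion the 24 h libraries, with 21.3 to 23.0 CPM, lay above both NT libraries (17.2 and 9.48), a difference that did not pass (0.74 ± 0.25, adjusted p = 0.12, edgeR).

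Esrrb encodes an orphan nuclear receptor that sustains self-renewal. Its OCR, in an intron 25 kb from a start (chr12:86385801-86387223), had 17.2 and 12.7 CPM in NT SOX2-FKBP cells, 12.7 to 16.9 at 0.5 and 1 h, 8.86 and 8.61 at 6 h and 6.3 and 4.8 at 24 h (6 h: -0.76 ± 0.18, adjusted p = 0.0108, edgeR). In OCT4-FKBP it had 5.47 and 8.9 CPM in NT cells, 13.5 and 17.9 at 2 h, 10.9 and 19.0 at 6 h and 1.22 and 3.94 at 24 h, so the early levels were above NT before the fall (-2.52 ± 0.43, adjusted p = 0.000187, edgeR). The OCR in Pecam1, a surface marker of naive cells, fell in OCT4-FKBP (-1.67 ± 0.42, adjusted p = 0.0102, edgeR), as did one near Tdrd12, and Pecam1 gave -0.37 ± 0.19 at 6 h of SOX2 depletion.

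Of 17 formative epiblast genes 4 had a late-lost OCR each (3.42% of 117 OCRs), of which 0 fell at 6 h of SOX2 depletion, 2 (one of them Fgf5) at 24 h of OCT4 depletion and 1 (Fgf5) at 24 h of NANOG depletion. The Fgf5 OCR, 1.58 kb into this marker gene of the postimplantation epiblast, had 25.8 and 25.8 CPM at 6 h and 7.72 and 5.09 at 24 h of OCT4 depletion (-1.92 ± 0.29, adjusted p = 4.63e-05), and 14.3 and 21.4 in NT against 5.95 to 11.3 at 24 h of NANOG depletion (-1.27 ± 0.28, adjusted p = 0.00428, both edgeR). The Foxd3 OCR was near 1 CPM or less in all OCT4-FKBP libraries but the first NT one (1.16), and so gave no information there.

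Trophectoderm genes had late-lost OCRs at Eomes and Tead4 (2 of 14 genes, and 2.06% of their 97 OCRs). Both fell after OCT4 depletion and after NANOG depletion, and Eomes also at 6 h of SOX2 depletion. The Eomes OCR, 6.74 kb upstream of this T-box factor gene, had 9.44 and 10.5 CPM in NT cells, 15.1 to 18.5 at 0.5 and 1 h, 10.4 and 10.2 at 6 h and 3.48 and 2.13 at 24 h, so that it was above NT early and its 6 h fall (-0.70 ± 0.17, adjusted p = 0.0133, edgeR) brought it back to NT. The Tead4 OCR was at 52.5 and 62.8 CPM at 6 h and 10.2 and 23.2 at 24 h of OCT4 depletion (-1.77 ± 0.26, adjusted p = 2.99e-05, edgeR). Of 13 primitive endoderm genes Foxa2 had 1 (1.89% of 53 OCRs), which fell at 6 h of SOX2 depletion (-0.91 ± 0.21, adjusted p = 0.00921) and after OCT4 depletion (-1.23 ± 0.32, adjusted p = 0.014, both edgeR). The trophectoderm promoters themselves had 10.0 CPM in NT and 12 at 24 h of SOX2 depletion at Cdx2, 18.2 and 21.8 at Eomes and 5.2 and 5.17 at Elf5, and those of the stem cell genes had 28.0 and 16.7 at Nanog, 47.5 and 39.4 at Esrrb, 36.6 and 33.2 at Sox2, 26.2 and 24.8 at Zfp42 and 20.9 and 27.1 at Tfcp2l1. Their part in the results was not tested.

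Of 22 genes of LIF, BMP, FGF and Nodal signaling 5 had 8 late-lost OCRs, 4.04% of their 198 (Lefty2, Smad7, Socs3 and Spry4 among them). At 6 h of SOX2 depletion 2 fell (Socs3 and one near Spry4, a feedback inhibitor of ERK signaling), at 24 h of OCT4 depletion 5 (Lefty2, Socs3 and 2 near Spry4 among them) and at 24 h of NANOG depletion 2 (both near Spry4). Of 16 Wnt genes Tcf7l1 had 1 (0.671% of 149 OCRs), which passed in no comparison (-0.22 ± 0.20 at 6 h), and of 11 Hippo-YAP genes, with 85 OCRs, none had one. Of 16 other Sox genes Sox13 and Sox1 had 4 (4.65% of 86 OCRs), of which 2 fell at 6 h of SOX2 depletion and 2, both near Sox13, at 24 h of OCT4 depletion. The Sox13 OCR 10.4 kb upstream had 31.9 and 27.5 CPM at 6 h and 13.7 and 13.8 at 24 h of OCT4 depletion (-1.06 ± 0.23, adjusted p = 0.00258, edgeR). No late-lost OCR of any of these lists rose in these 3 comparisons by edgeR's quasi-likelihood test. Without 6 h replicate 2 the 6 h calls at Fgf4, Esrrb, Eomes and Foxa2 were lost (adjusted p = 0.424, 0.202, 0.22 and 0.316, edgeR), and without 6 h replicate 1 those at Fgf4, Esrrb and Eomes (0.132, 0.0935 and 0.107).

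The Lefty2 locus held several late-lost OCRs side by side and was described after its values were seen. Lefty2 encodes a secreted inhibitor of Nodal. The main OCR, 4.27 kb upstream (chr1:180888100-180890174), had 90.3 and 98.4 CPM in NT libraries, 90.2 and 97.7 at 0.5 h, 131 and 83.0 at 1 h, 101 and 92.9 at 2 h, 81.6 and 70.6 at 6 h and 26.5 and 22.8 at 24 h. Most of its loss came after 6 h, and the 6 h change did not pass (-0.40 ± 0.14, adjusted p = 0.147, edgeR), although with the replicate block it did (-0.39, adjusted p = 0.00562). In OCT4-FKBP it fell from 123 and 90.5 CPM at 6 h to 29.4 and 16.9 at 24 h (-2.13 ± 0.33, adjusted p = 5.86e-05, edgeR), and with NANOG depleted for 24 h it had 69.1 to 143 CPM against 89.9 and 94.6 in NT (0.18 ± 0.29, adjusted p = 0.905, edgeR).

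Around it, late-lost OCRs lay at -15.41 and 1.34 kb from the first Lefty2 start, with 43.6% and 43.9% of NT left at 24 h and 87.7% and 90.6% at 6 h. Other OCRs in the same stretch kept more of their level, as one at -18.83 kb, nearest to Sde2, had 15.8 CPM in NT cells and 10.6 at 24 h. The early-lost OCR at 31.77 kb, nearest to Lefty1, had 34.7 CPM in NT cells, 15.8 at 2 h, 8.48 at 6 h and 2.04 at 24 h, so that the timing differed between OCRs of one neighborhood.

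**Figure D4:**
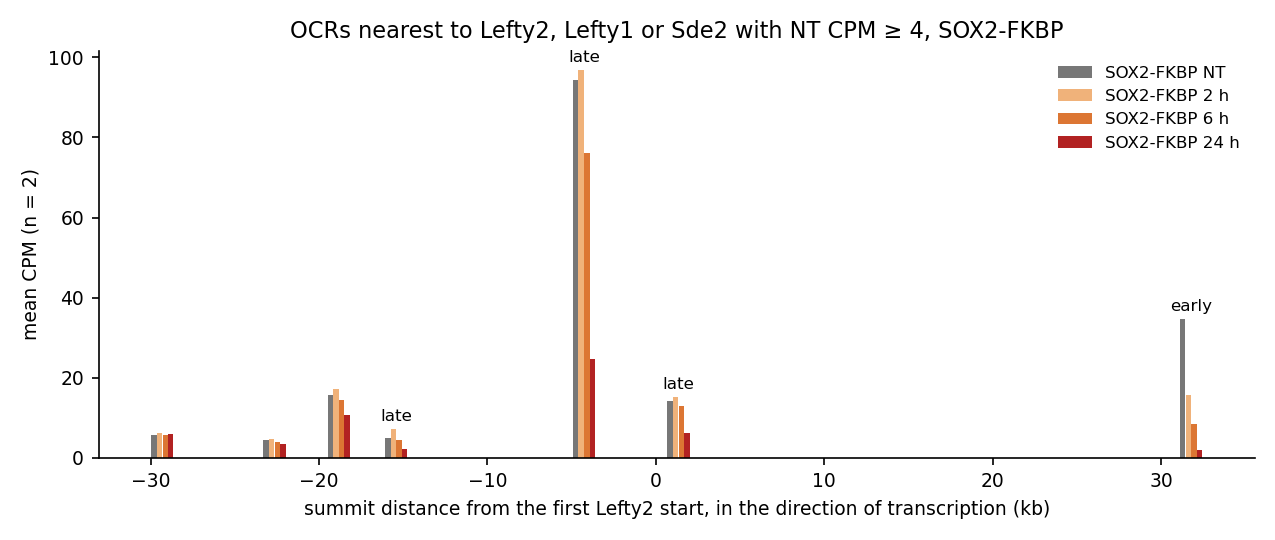
Mean CPM (n = 2) of OCRs nearest to Lefty2, Lefty1 or Sde2 with at least 4 CPM in NT SOX2-FKBP cells, by distance in kb from the first Lefty2 start, in NT cells and at 2, 6 and 24 h of dTAG-13. Late-lost and early-lost OCRs are marked. The OCR at -4.27 kb had 94.3 CPM in NT cells, 96.8 at 2 h, 76.1 at 6 h and 24.7 at 24 h, while the early-lost OCR at 31.77 kb was at 15.8 CPM by 2 h.

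Late-lost OCRs were nearest to 902 protein-coding genes within 100 kb, of which 787 had 1 and 96 had 2. Prex1, a Rac exchange factor gene, had 5, and Cacna1a, Epha2, Lhfpl2, Rab11fip4, Sik1 and Slc39a11 had 4 each, named after their counts were seen. At Prex1 the 5 OCRs had 23.5% to 47.9% of NT left at 24 h, and 1 fell at 6 h of SOX2 depletion (chr2:166655437-166657333, -0.71 ± 0.15, adjusted p = 0.00423, edgeR). At Epha2, an ephrin receptor gene, an OCR 9.44 kb upstream had 51.2 and 48.4 CPM in NT cells, 41.7 and 40.3 at 6 h and 14.5 and 14.4 at 24 h. It fell after OCT4 depletion from 50.5 and 56.0 to 12.5 and 14.0 CPM (-1.95 ± 0.31, adjusted p = 6.75e-05, edgeR), while at 24 h of NANOG depletion it gave 0.33 ± 0.26.

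In all, 284 late-lost OCRs (23.4%) had another one within 50 kb and 180 within 20 kb. The same spacing was not taken for other OCRs, so that these counts do not show whether late-lost OCRs cluster more. Of the 1741 other OCRs with at least 4 CPM within 10 kb of one, 138 (7.93%) were lower at 6 h of SOX2 depletion, against 4.79% of all OCRs at that level, and their median at 24 h was 81.6% of NT. Early-lost OCRs were 10.4% of these neighbors and 8.61% of all. The neighbors exclude late-lost OCRs and were taken at a minimum NT level, so that their 24 h median, which uses libraries of the rule, is a description.

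Most late-lost OCRs were distal. Their summits were intergenic in 571 cases (47.0%) and intronic in 548 (45.1%), and 40 lay in untranslated, 39 in noncoding and 16 in coding exons. Only 80 (6.59%) were within 500 bp of an annotated start, against 24.9% of OCRs with at least 4 CPM and 3.01% of early-lost OCRs. The median distance to a protein-coding start was 19.4 kb, against 8.76 and 33.3 kb in those sets. The median GC content around the summit was 52.0%, against 53.5% and 47.0%, and the median width was 913 bp. Late-lost OCRs thus stood between the early-lost and all OCRs in distance from starts and in GC content. The X chromosome held 10 (0.957% of its OCRs with at least 4 CPM), and the autosomes between 1.47% and 2.28%.

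Among the promoter OCRs, Dmtn (dematin, an actin-bundling protein) was the brightest, with 71.6 and 75.1 CPM in NT cells, 69.9 to 79.3 at 0.5 and 1 h, 57.2 and 60.2 at 2 h, 46.2 and 41.3 at 6 h and 23.7 and 21.4 at 24 h. It fell at 6 h by 0.74 ± 0.13 (adjusted p = 0.00032, edgeR) and after OCT4 depletion by 1.16 ± 0.28 (adjusted p = 0.00709, edgeR), with no overlap between the libraries compared, and its 6 h call was lost without 6 h replicate 2 (-0.63, adjusted p = 0.0562, edgeR). Lrriq4 (-0.35 ± 0.13, adjusted p = 0.165), Trpm1 (-0.32 ± 0.13, 0.234) and Slc7a7 (-0.38 ± 0.14, 0.178) did not pass at 6 h by edgeR's quasi-likelihood test, and Lrriq4 and Slc7a7 passed with the replicate block (adjusted p = 0.0259 and 0.0414). At the promoter of Trpm1, a cation channel gene, the level fell after OCT4 depletion (-1.46 ± 0.34, adjusted p = 0.00554) and after NANOG depletion (-1.26 ± 0.27, adjusted p = 0.00321, both edgeR). The promoter of Slc7a7, an amino acid transporter gene, fell after OCT4 depletion (-1.72 ± 0.33, adjusted p = 0.000881, edgeR).

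The sequence under the summits differed from both the early-lost and all tested OCRs in the shares of several consensus matches, given here as descriptions with 95% Wilson intervals that cover counting error only. A SOX match was in the 200 bases of 32.3% of late-lost OCRs (29.7% to 35.0%), 55% of early-lost OCRs and 24.8% of all tested. A POU match was in 3.54% (2.64% to 4.74%), 10.6% and 4.82%. The SOX-POU composite was in 4 late-lost OCRs (0.329%), near Lefty2, Myof, Nupl2 and Gm21964, against 2.23% of early-lost OCRs and 0.273% of all. SOX, POU and composite letters were thus less common than under early-lost summits. When the whole peak was read, SOX matches were in 75.6% of late-lost, 87.8% of early-lost and 61.6% of all tested OCRs. No SOX or POU match was found in the whole peak of 265 late-lost OCRs (21.8%), and the same share was not taken over other OCRs.

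The matches of other factors ran the other way. ZIC letters were in 24.2% of late-lost OCRs (21.9% to 26.7%), 16.9% of early-lost OCRs and 12.8% of all tested. KLF letters were in 20.0% (17.9% to 22.4%), 12.8% and 14.0%, and TCF/LEF letters in 8.98% (7.50% to 10.7%), 4.83% and 3.75%. ESRRB/NR5A2 letters differed less, with 11.4% (9.70% to 13.3%), 10.5% and 8.55%. One or more of SOX, KLF, ZIC and TCF/LEF was found in 780 late-lost OCRs (64.3%) and in 46.0% of all tested. The other patterns searched were closer to all tested OCRs, with CTCF (AGGGGGC or AGATGGC) in 10.7% against 12.7%, TEAD (GGAATGT) in 4.37% against 4.41%, AP-1 (TGANTCA) in 6.75% against 7.03%, OTX (GGATTA) in 6.67% against 5.67% and E-box (CACGTG) in 4.04% against 4.8%. TFCP2L1 (a direct repeat of CCAG with 6 bases between), ETS (CCGGAAG), GRHL (AACCNGTT), the motif of the GATA factors (AGATAAG), STAT (TTCCNGGAA) and NRF1 (GCGCATGC) were in 0.577% to 3.46% against 0.969% to 3.83%. A match is a description of letters and no binding was measured.

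Base composition and repeats bear on these shares. Of late-lost windows 15.8% were over 50% repeat, against 13% of all tested. Outside repeats ZIC matches were in 18.3% against 10.6%, KLF in 14.3% against 10.7%, TCF/LEF in 7.0% against 2.96% and SOX in 25.6% against 20.3%. Among windows of 50 to 55% GC, 27% of 503 late-lost OCRs held ZIC letters against 14.7% of all, 17.9% held KLF letters against 15.3% and 7.75% TCF/LEF letters against 4.09%. Among windows of 60% GC and more, 0 of 67 late-lost OCRs had TCF/LEF letters, against 0.999% of all, and 67 windows are too few to compare at that share.

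**Figure D5:**
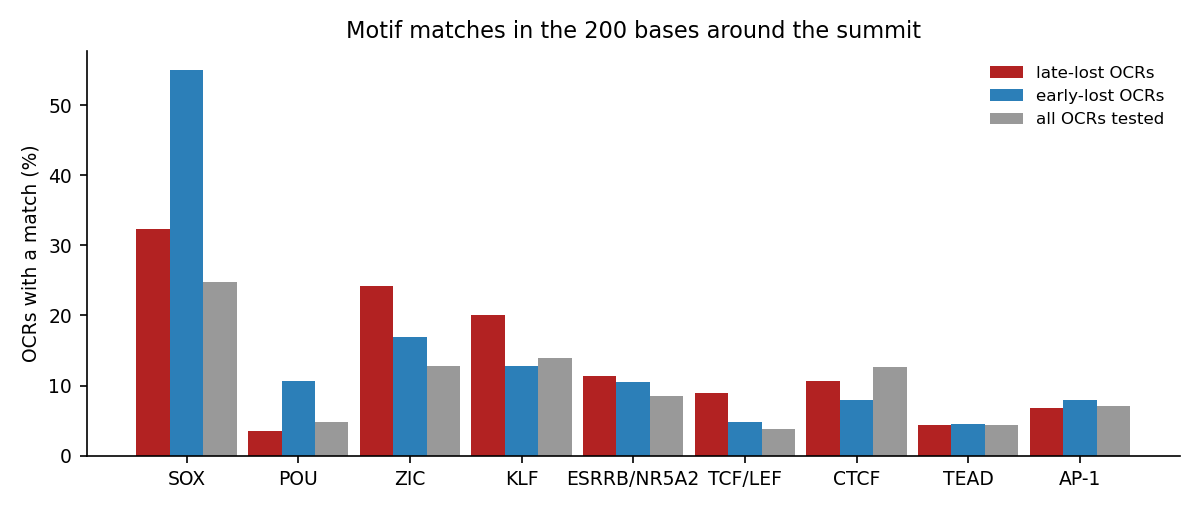
Percent of late-lost OCRs, early-lost OCRs and all OCRs tested with a consensus match in the 200 bases around the summit, for 9 patterns. SOX matches were in 32.3%, 55% and 24.8% of these sets, and ZIC matches in 24.2%, 16.9% and 12.8%.

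Late-lost OCRs with different letters were also read against the depletions, as counts without a test. Of 243 with KLF letters 84 (34.6%) were lower at 6 h of SOX2 depletion, against 22.1% of the 971 without, and the Crtc1 and Ngfr OCRs printed above are among the 84. Of 392 with SOX letters 20.9% were lower at 6 h, against 26.4% of the 822 without. Of 109 with TCF/LEF letters 30 (27.5%) were lower at 24 h of NANOG depletion, against 15.2% of the other 1105, and Tmem132b is one of the 30. ZIC letters went with 44.6% against 37.0% lower at 24 h of OCT4 depletion, and with 12.6% against 17.5% lower at 24 h of NANOG depletion. In the 106 OCRs above their NT level at 24 h of OCT4 depletion, TCF/LEF letters were in 17.9% and KLF letters in 13.2%, in the 398 with 50% to 100% left in 8.04% and 13.8%, and in the 710 with 50% or less left in 8.17% and 24.5%. KLF letters were thus most frequent in the lowest class and TCF/LEF letters in the highest, as shares without a test and without a minimum level in OCT4-FKBP.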

How the data were processed

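Accessibility was measured by ATACseq in SOX2-FKBP, OCT4-FKBP and NANOG-FKBP mESC. Per the study's methods and the submitters' processing notes, the authors aligned reads to mm10 with BWA 0.7.17-r1188, filtered them with SAMtools 1.10 and Picard 2.12.0, merged the libraries for peak calling with MACS2 and counted fragments in each peak. The deposited table holds raw counts for 184964 peaks in each library, and the deposited peak list gives each summit's offset and its fold enrichment, a ratio over the local background. Of 45 samples 31 have a column, and the other 14 were not analysed here.

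CPM used column totals without the 2 mitochondrial peaks. Late-lost OCRs and all gene lists were chosen with earlier results of these data known. Because SOX2-FKBP NT, 2 h and 24 h and OCT4-FKBP NT and 2 h entered the rule, tests used other libraries, or NANOG-FKBP. OCRs with over 10 counts in more than 2 of 12 SOX2-FKBP libraries, or in more than 6 of 27 libraries of the 3 lines, were fitted with edgeR 4.0.16 (TMM, glmQLFit and glmQLFTest, R 4.3.3), with Benjamini-Hochberg adjustment at 0.05. All 1214 passed both filters, chosen as they were at 4 CPM or more. SEs were approximated from the F statistic. DESeq2 1.42.0, other scalings, filters, GC offsets, a replicate block and leaving out each library were alternatives. Only the main edgeR fit was tested on simulated data, for SOX2-FKBP at 6 h, OCT4-FKBP at 24 h and NANOG-FKBP at 24 h. The alternatives were not. Same-numbered libraries deviated together in SOX2-FKBP (correlations 0.124 to 0.405 over 15 pairs of conditions) and OCT4-FKBP (0.257 to 0.545 over 6 pairs), and were taken to pair there. In NANOG-FKBP treated libraries of one number also deviated together (0.412 to 0.474 over 3 pairs), but NT and treated libraries gave -0.0111 to 0.133 and were not taken to pair.

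Genes are the nearest protein-coding starts of GENCODE vM21. Sequence is RefSeq's GRCm38.p6, read for 160298 tested OCRs with Python 3.11.15. OCRs named in the text were the 8 with the steepest fall at 6 h among those called lower without overlap with 0.5 and 1 h, and the 8 with the lowest share at 24 h (both with at least 8 CPM in NT cells), the 4 steepest called changes each way in OCT4-FKBP, the 4 steepest falls in NANOG-FKBP, the 4 brightest at promoters, up to 3 of the brightest per gene list, and those nearest each threshold. Others are named as chosen after their values were seen. OCRs of some genes are not reported here, although the counts over lists and over all late-lost OCRs hold them.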

Additional observations from a re-analysis of the deposited data

Results flagged for a closer look

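The effects of OCT4 and NANOG depletion between 6 and 24 h differed by the interaction term of edgeR's quasi-likelihood test at 120 late-lost OCRs with a more negative change in OCT4-FKBP, and at 0 with a more positive one. Of all OCRs tested, 0.624% and 0.0817% passed in these directions. The count lay between 94 (with DESeq2's size factors) and 337 (with the replicate block) over 8 alternatives. The 2 lines differ in their parental cells, which cannot be told apart from the depleted protein. The rule also set a minimum at 2 h in OCT4-FKBP and none in NANOG-FKBP, and the part of this in the count was not tested.

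The most negative differences, chosen after their values were seen, were near Eno1 (-2.88 ± 0.49, adjusted p = 0.0026, edgeR), Celf4 (-2.83 ± 0.50, adjusted p = 0.00334, edgeR), Adgrd1 (-2.62 ± 0.45, adjusted p = 0.00265, edgeR) and Pitpnc1 (-2.52 ± 0.53, adjusted p = 0.0133, edgeR). At Adgrd1, an adhesion receptor gene, OCT4-FKBP libraries had 40.3 and 39.8 CPM at 6 h and 4.61 and 6.9 at 24 h, whereas NANOG-FKBP libraries had 39.3 to 82.7 and 34.9 to 85.3 CPM. At Lefty2 the difference was -2.00 ± 0.41 (adjusted p = 0.0114), at Esrrb -2.19 ± 0.55 (0.0444), at Socs3 -1.57 ± 0.39 (0.0436) and at Ngfr -1.79 ± 0.45 (0.0436), all by edgeR.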

How the results depend on the processing

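Of late-lost OCRs lower at 6 h of SOX2 depletion (299), DESeq2's own test gave 155, the replicate block 493, the block with GC offsets 490, 1 h alone as reference 152, 0.5 h alone 197, and leaving out single libraries 54 to 334. The shares of all OCRs tested were 1.06% with DESeq2's own test, 4.43% with the block, 4.29% with the block and GC offsets, and 0.541% to 2.38% without single libraries. For OCT4 depletion (471), a minimum of 10 counts in every library gave 293, with 419 late-lost OCRs tested, and leaving out single libraries 173 to 436. The shares of all OCRs tested were 17.3% under this minimum and 0.978% to 3.93% without single libraries. For NANOG depletion at 2, 6 and 24 h (74, 104 and 198), the same minimum gave 2, 17 and 59, and leaving out single libraries 24 to 67, 44 to 89 and 111 to 202. The replicate block gave 645 for OCT4, and 143, 193 and 283 for NANOG, where NT and treated libraries of one number did not deviate together (146 and 197 at 2 and 6 h with GC offsets). It also raised the shares of all OCRs tested, to 8.65% for OCT4 and 1.98%, 2.27% and 3.66% for NANOG. With the block the share of lower among all NANOG calls was 85.9%, 84.8% and 75.8% in place of 98.3%, 96.7% and 88.7%. GC offsets were chosen after seeing the data. The cause of these shifts was not tested, except that fewer OCRs were tested under the count minimum. That minimum also removes OCRs that fell to few counts in a treated library.

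The rule gave 443 OCRs with at most 0.4 left at 24 h, 751 with at least 0.9 left at 2 h and 395 with every threshold met in each replicate, of which 37.7%, 25.8% and 37.2% were lower at 6 h. Over the whole peak, matches were in 75.6% (SOX), 17.1% (POU), 44.6% (KLF), 30.1% (ESRRB/NR5A2), 47.9% (ZIC) and 21.9% (TCF/LEF). The shares over all tested OCRs were 61.6%, 14.6%, 33.1%, 21.5%, 31.6% and 12.3% in the same order. Late-lost OCRs were also wider than all tested, with medians of 913 and 711 bp. They were narrower than early-lost OCRs (954 bp) and than OCRs with at least 4 CPM in NT cells (1092 bp). The part of width in these shares was not tested. Of 500 alternative values for named OCRs, 452 kept their direction and side of the threshold, 30 lost and 18 gained significance, and 0 changed sign. The 17 median counts per OCR at 24 h of OCT4 depletion limit what could be called there.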
